A study of Mus musculus with 6 samples.

Results

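The genes described here are 10 genes of antibody (Fc) receptors and their signalling, whose RNA was sequenced in bulk from bone marrow derived macrophages (BMDMs) of mice, cells cultured out of marrow. They are the IgG receptor genes Fcgr1, Fcgr2b, Fcgr3 and Fcgr4, the neonatal Fc receptor gene Fcgrt, the adaptor chain genes Fcer1g and Tyrobp, the kinase gene Syk and the phosphatase genes Ptpn6 and Inpp5d. They were chosen by symbol, and all 10 were found among the 16519 genes of the table and were tested with 12605 genes in all. In 3 libraries (KO 1 to KO 3) the cells came from Trmt61af/fLysmCre mice, which carry floxed Trmt61a and a LysM-Cre allele, and in 3 libraries (WT 1 to WT 3) from Trmt61af/f mice, which carry the floxed gene and no Cre. The product of Trmt61a is the catalytic part of the methyltransferase that places N1-methyladenosine in tRNA, and LysM-Cre is a Cre recombinase driven from the lysozyme gene Lyz2 in myeloid cells. Cre was present in the KO mice alone, so the loss of Trmt61a and the presence of Cre cannot be told apart. The labels give no age, sex or stimulus, nor whether replicates are separate mice or cultures. The p-values therefore reflect the spread among these libraries alone, which may be technical.

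Receptors for the constant part of IgG let macrophages bind, engulf and destroy antibody-coated particles. The activating receptors encoded by Fcgr1, Fcgr3 and Fcgr4 carry no signalling motif of their own in mouse and depend on the common gamma chain, the product of Fcer1g, whose ITAM (a paired tyrosine motif) is phosphorylated by Src-family kinases and then recruits the kinase Syk. The receptor encoded by Fcgr2b has an inhibitory motif (ITIM) in its tail and recruits the lipid phosphatase SHIP-1, encoded by Inpp5d, while many other ITIM receptors of macrophages recruit the tyrosine phosphatase SHP-1, encoded by Ptpn6. These data measure RNA, and the proteins were not measured here.

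Depth ran from 37021855 counts (WT 1) to 41033179 (WT 3). Trmt61a stood at 0.530, 0.755 and 0.539 CPM (counts-per-million scaled by TMM factors) in KO 1 to KO 3, against 4.96, 3.89 and 5.06 CPM in WT 1 to WT 3. It was lower in all 3 KO libraries than in any WT library, matching the genotype labels (log2 fold change -2.92, SE 0.28, edgeR adjusted p = 0.00219). Macrophage markers were abundant in both genotypes: Adgre1, the F4/80 antigen, stood between 2151 and 2404 CPM in KO and between 1973 and 2377 CPM in WT, and Csf1r, the receptor for the growth factor of macrophages, between 3930 and 5117 CPM in KO and between 4112 and 4929 CPM in WT. Of the 10 macrophage markers, Lyz2, the gene from which the Cre of the KO mice is driven, was the only one called, lower in KO. The 9 of 10 listed NK and T cell markers present in the table summed to between 0.0795 and 1.08 CPM in KO and between 0.151 and 0.542 CPM in WT, the 9 B cell markers to between 9.25 and 15.6 CPM in KO and between 9.12 and 17.0 CPM in WT, and the 9 dendritic cell markers to between 6.36 and 7.96 CPM in KO and between 7.41 and 9.47 CPM in WT. The 7 mast cell and basophil markers in the table summed to between 8.30 and 16.2 CPM in KO and between 11.4 and 22.8 CPM in WT, and the 10 neutrophil markers to between 1345 and 2146 CPM in KO and between 1382 and 2481 CPM in WT. In bulk RNA, fewer cells of a type and less RNA per cell cannot be told apart.

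No member was called between KO and WT. The count was 0 of 10, in a fit over all genes that called 4 of 12605, or 0.0317% (edgeR's quasi-likelihood test at a threshold of 0.05 after Benjamini-Hochberg adjustment over all genes). The same count was 0 in DESeq2 and in limma voom. At an unadjusted p under 0.05 there was 1 member, Fcer1g, in each of the 3 tools, where 3.1% of all tested genes lay in edgeR, and 1.64% with the lower value in KO as here. The genotypes were without overlap for 2 of 10 members, Fcer1g and Ptpn6, both lower in KO. Among all tested genes the share without overlap was 8.65%, and 4.59% with KO lower. The log2 fold changes ran from -0.15 (Fcer1g) to 0.06 (Fcgr3), 5 above 0 and 5 below 0, with a median of 0.0014, beside a median of 8.37e-05 over all tested genes.

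These differences were bounded closely. The 95% interval of the fold change lay within 1.5-fold in either direction for all 10 members, and for 96.1% of the 8443 tested genes that averaged 10 CPM or more. It lay within 1.3-fold for 9 members and for 85.3% of those genes, and the exception was Fcgr2b, whose interval ran from -0.31 to 0.40 on the log2 scale.

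**Figure D1:**
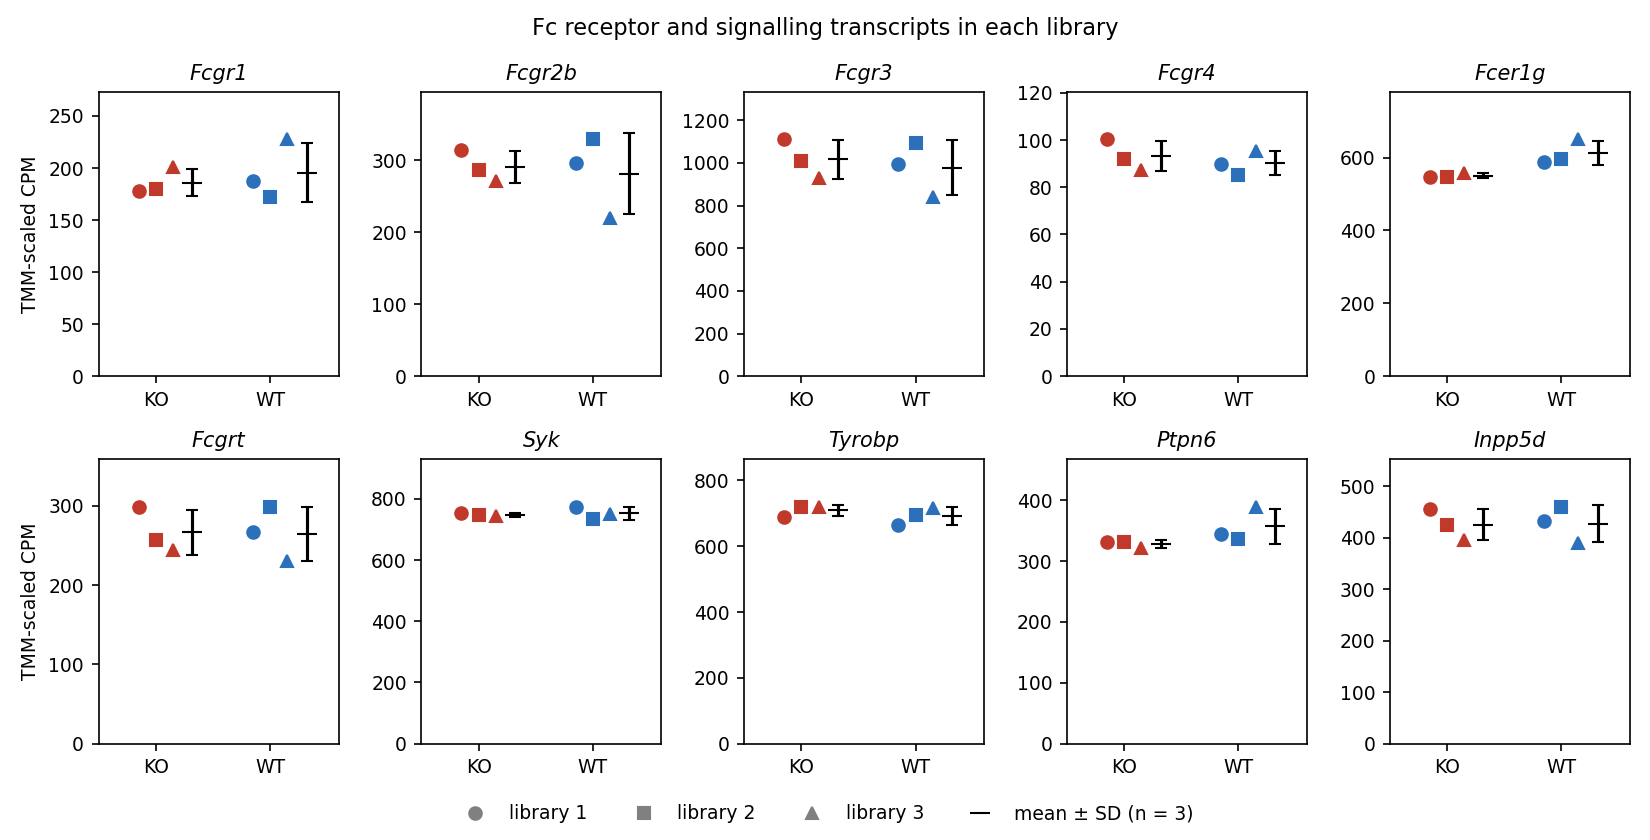
Level of each of the 10 transcripts in TMM-scaled CPM (vertical axis, starting at 0) in the 3 KO and 3 WT libraries; symbols mark the library number and black bars the mean ± SD (n = 3). KO points lie below all WT points for Fcer1g and Ptpn6, and overlap WT points for the other members.

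Among the activating receptors Fcgr3 had the highest level per length (values per kilobase are given further on). It encodes the low-affinity receptor FcgammaRIII and is located on chromosome 1 (chr1:171051169-171065915, mm10, minus strand). It had 1110, 1011 and 930 CPM in KO 1 to KO 3, against 997, 1095 and 840 CPM in WT 1 to WT 3. The genotypes overlapped, with the highest value in KO 1 and the lowest in WT 3 (KO mean 1017 ± 90.5 CPM, WT mean 977 ± 129 CPM, SD, n = 3 each). The log2 fold change was 0.06 with a 95% interval from -0.17 to 0.28.

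Fcgr1 encodes the high-affinity IgG receptor (CD64), often used as a macrophage marker (chr3:96282909-96293969, minus strand). It had 178, 180 and 201 CPM in KO 1 to KO 3, against 187, 172 and 228 CPM in WT 1 to WT 3. WT 3 was the highest library and WT 2 the lowest, so that both extremes were WT (log2 fold change -0.07, interval from -0.30 to 0.15). Fcgr4 encodes the receptor FcgammaRIV of mouse (chr1:171018926-171029761, plus strand), and had 100.3, 92.1 and 87.3 CPM in KO 1 to KO 3, against 90.0, 85.3 and 95.5 CPM in WT 1 to WT 3. The KO range enclosed most of the WT range (log2 fold change 0.05, interval from -0.11 to 0.20).

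The inhibitory receptor gene Fcgr2b varied most among libraries. It had 314, 286 and 271 CPM in KO 1 to KO 3, against 297, 329 and 219 CPM in WT 1 to WT 3. The WT libraries held both the highest and the lowest value, with a spread of 0.59 on the log2 scale, and the KO libraries lay between them (KO mean 291 ± 21.8 CPM, WT mean 282 ± 56.4 CPM, SD, n = 3 each). The log2 fold change was 0.05 (SE 0.15).

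Fcgr2b (chr1:170960558-170976071, minus strand) and Fcgr3 are paralogs whose extracellular parts are alike, which bears on how far their counts can be separated. Of the distinct 50-base words of all annotated Fcgr3 transcripts (GENCODE M21), 9.58% also occur in Fcgr2b transcripts, which is 2.92% of the words of Fcgr2b. Over all genes, 6.95% of the words of Fcgr2b occur in transcripts of 146 other genes. Fcgr1, Fcgr4, Fcer1g, Fcgrt, Syk and Tyrobp share 0 such words with any other gene's transcripts, while Ptpn6 shares 5.01% (with the antisense gene Gm20531) and Inpp5d 0.572%. The longest stretch that the Fcgr2b and Fcgr3 coding sequences have in common is 129 bases, is spliced from 2 exons in each gene, and is shown because a read inside it fits both genes. It lies at chr1:170966674-170968081 in Fcgr2b and at chr1:171054167-171057792 in Fcgr3 (GRCm38, minus strand, intron included in both spans).
Fcgr2b and Fcgr3: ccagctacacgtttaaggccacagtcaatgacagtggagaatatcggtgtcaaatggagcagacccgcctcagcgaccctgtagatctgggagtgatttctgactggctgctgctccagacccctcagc
The sources used here do not say how the counting treated reads that fit several genes, so the split between these genes is uncertain to that extent. An antisense gene, Gm38204, also overlaps exons of Fcgr2b on the opposite strand, and Gm20531 those of Ptpn6. The strand setting of the counting is likewise not given, so reads of these antisense genes cannot be told apart from those of Fcgr2b and Ptpn6.

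The ratio of activating to inhibitory receptor transcripts showed no separation of the genotypes. Per kilobase of exon, the sum of Fcgr1, Fcgr3 and Fcgr4 was 14.5, 14.7 and 14.6 times Fcgr2b in KO 1 to KO 3, against 14.0, 13.5 and 17.1 times in WT 1 to WT 3. The KO values lay close together and inside the WT range, whose highest value, in WT 3, stood apart from the other WT values. Fcgr3 alone was 11.8, 11.8 and 11.4 times Fcgr2b in KO 1 to KO 3, against 11.2, 11.1 and 12.8 times in WT 1 to WT 3. Fcgr1 over Fcgr2b was 1.27, 1.40 and 1.65 in KO 1 to KO 3, against 1.41, 1.17 and 2.32 in WT 1 to WT 3, again with the highest value in WT 3. The size of these ratios depends on the exon lengths used, such as 5790 bases for Fcgr2b and 1736 bases for Fcgr3. It also depends on how reads that fit both Fcgr2b and Fcgr3 were counted.

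Fcer1g, the gene of the common gamma chain on which the activating receptors depend, had the smallest p of the members. It is located at chr1:171229572-171234349 on the minus strand. It had 548, 545 and 558 CPM in KO 1 to KO 3, against 589, 597 and 650 CPM in WT 1 to WT 3. Every KO library lay below every WT library, and the KO mean was 89.9% of the WT mean (KO mean 550 ± 6.61 CPM, WT mean 612 ± 33.2 CPM, SD, n = 3 each). The log2 fold change was -0.15 (SE 0.06), and its 95% interval ran from -0.28 to -0.02. The unadjusted p was 0.0243, and over all genes it did not pass (edgeR adjusted p = 0.999949). Without WT 3, its highest library, the log2 fold change was -0.11, and without KO 2 it was -0.15; in both cases the unadjusted p no longer lay under 0.05. The summed neutrophil markers, another myeloid type in which Fcer1g is active, were 1345, 2114 and 2146 CPM in KO 1 to KO 3, against 1738, 1382 and 2481 CPM in WT 1 to WT 3, so WT 3 was highest in both measures and the genotypes overlapped in the markers. WT 3 also had the highest sum of the mast cell and basophil (22.8 CPM), B cell (17.0 CPM) and dendritic cell (9.47 CPM) markers. The macrophage marker sum was highest in WT 2, and the NK and T cell marker sum in KO 2. The part of neutrophils or of other cell types in the Fcer1g values was not tested.

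Tyrobp encodes DAP12, the other ITAM adaptor of macrophages, which pairs with receptors such as the product of Trem2 (chr7:30413782-30417582, plus strand). It had 690, 720 and 719 CPM in KO 1 to KO 3, against 665, 695 and 717 CPM in WT 1 to WT 3. The genotypes overlapped widely (log2 fold change 0.04, interval from -0.09 to 0.16). Per kilobase, Tyrobp was 1.65, 1.73 and 1.69 times Fcer1g in KO 1 to KO 3, against 1.48, 1.53 and 1.45 times in WT 1 to WT 3. This ratio of the adaptor transcripts was higher in every KO library than in every WT library. It and Syk over Ptpn6 were the only ones of 7 ratios between members that separated the genotypes. The denominators of both, Fcer1g and Ptpn6, were the only members whose own values were without overlap, so both ratios restate those values in part. All 7 ratios were chosen with the values of the members known and were not tested. Syk over Ptpn6 was 0.684, 0.674 and 0.692 in KO 1 to KO 3, against 0.673, 0.651 and 0.578 in WT 1 to WT 3, with KO 2 and WT 1 nearly equal. The gamma chain transcript relative to the summed activating receptors was 0.795, 0.861 and 0.935 in KO 1 to KO 3, against 0.938, 0.892 and 1.15 in WT 1 to WT 3, and here the genotypes overlapped.

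Syk, the kinase that binds phosphorylated ITAMs, was the steadiest member (chr13:52582610-52648792, plus strand). It had 755, 748 and 743 CPM in KO 1 to KO 3, against 774, 733 and 751 CPM in WT 1 to WT 3. The highest library had 1.06 times the level of the lowest, and both were WT. The log2 fold change was -0.01 with an interval from -0.13 to 0.11.

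Ptpn6, the gene of the tyrosine phosphatase SHP-1, lay lower in each KO library (chr6:124720707-124738709, minus strand). It had 331, 332 and 321 CPM in KO 1 to KO 3, against 344, 337 and 389 CPM in WT 1 to WT 3. The gap between the nearest libraries, KO 2 and WT 2, was small, and WT 3 stood above all others (KO mean 328 ± 5.94 CPM, WT mean 357 ± 28.1 CPM, SD, n = 3 each). The log2 fold change was -0.12 (SE 0.06), with an unadjusted p of 0.0847 and an edgeR adjusted p of 0.999949. Without WT 3 the log2 fold change was -0.05.

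Inpp5d, the gene of the lipid phosphatase SHIP-1, showed no such order (chr1:87620312-87720510, plus strand). It had 456, 424 and 396 CPM in KO 1 to KO 3, against 433, 460 and 389 CPM in WT 1 to WT 3. The KO range lay inside the WT range (log2 fold change -0.01, interval from -0.17 to 0.16).

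Fcgrt encodes the heavy chain of the neonatal Fc receptor, which pairs with beta-2-microglobulin and returns IgG from endosomes to the surface (chr7:45092993-45103822, minus strand). It had 299, 257 and 245 CPM in KO 1 to KO 3, against 267, 298 and 230 CPM in WT 1 to WT 3. The genotypes covered nearly the same range (log2 fold change 0.01, interval from -0.23 to 0.25).

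**Figure D2:**
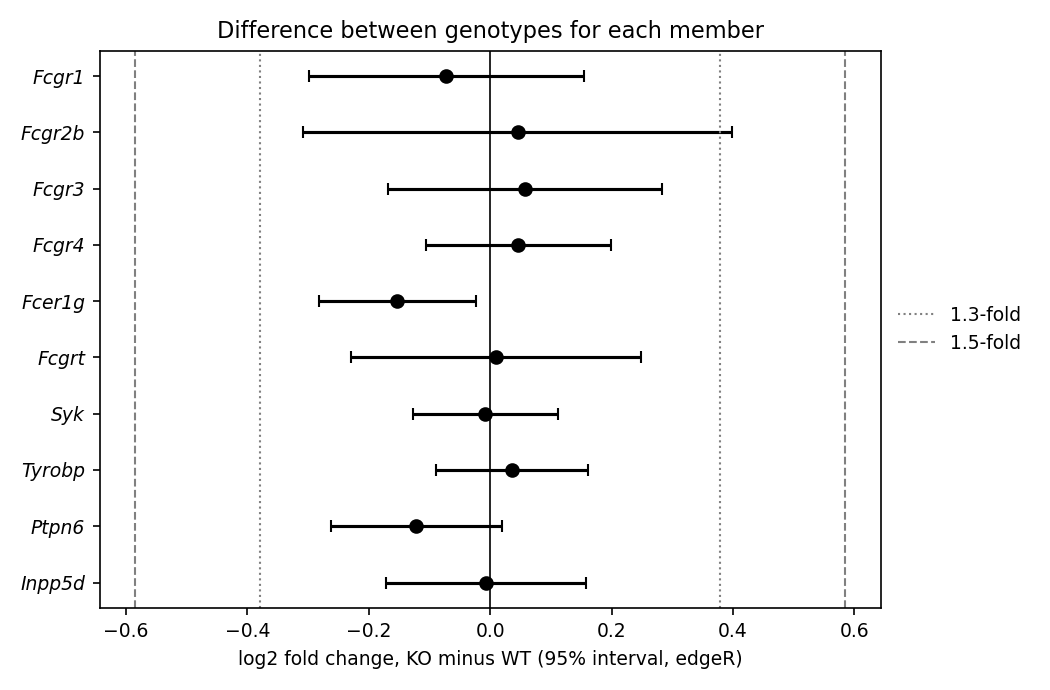
Log2 fold change of KO minus WT with its 95% interval (edgeR) for each member, with dotted lines at 1.3-fold and dashed lines at 1.5-fold in either direction. All intervals lie inside the 1.5-fold lines, that of Fcgr2b crosses a 1.3-fold line, and that of Fcer1g lies below 0.

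Per length, the adaptor chains and Fcgr3 stood well above the remaining members. CPM per kilobase of the union of annotated exons (GENCODE M21) averaged 1064 ± 25.3 in KO and 1038 ± 39.8 in WT for Tyrobp, 630 ± 7.56 in KO and 700 ± 37.9 in WT for Fcer1g, and 586 ± 52.1 in KO and 563 ± 74.1 in WT for Fcgr3 (SD, n = 3 each). Fcer1g and Fcgr3 were not separated, since KO 1 had 627 CPM per kilobase of Fcer1g and 640 of Fcgr3. Then came Fcgrt with 127 ± 13.5 in KO and 126 ± 16.2 in WT, and Ptpn6 with 117 ± 2.12 in KO and 127 ± 10.04 in WT, which overlapped each other. Syk (79.97 ± 0.684 in KO and 80.4 ± 2.20 in WT), Fcgr4 (74.2 ± 5.22 in KO and 71.9 ± 4.06 in WT) and Fcgr1 (71.9 ± 4.89 in KO and 75.6 ± 11.1 in WT) followed, and their ranges overlapped. Inpp5d (56.0 ± 3.95 in KO and 56.2 ± 4.69 in WT) and Fcgr2b (50.2 ± 3.76 in KO and 48.6 ± 9.75 in WT) were lowest and overlapped as well. By this measure all 10 were among the more abundant transcripts, from percentile 93.1 (Fcgr2b) to percentile 99.8 (Tyrobp) of 12368 tested genes with an annotated length. The exon union may be longer than the transcript that these cells make, which lowers the value for genes with long rare exons, such as Fcgr2b with 5790 bases.

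**Figure D3:**
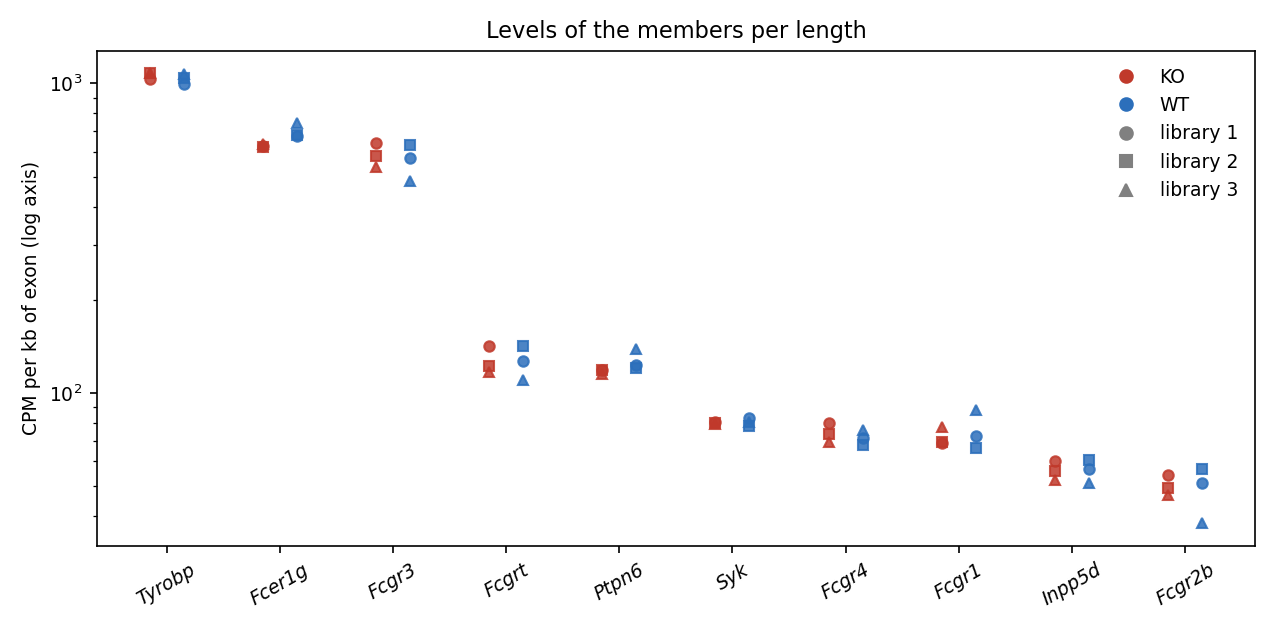
CPM per kilobase of exon (log axis) of each member in the 3 KO (red) and 3 WT (blue) libraries, ordered by the KO mean; symbols mark the library number. Tyrobp, Fcer1g and Fcgr3 lie at 484 or above in all libraries, and the other 7 members at 142 or below.

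Apart from Fcer1g and Ptpn6, the difference between the genotype means of each member was smaller than the SD among WT libraries. With the 6-library mean as 0, Fcgr2b stood at 0.15, 0.01 and -0.06 on the log2 scale in KO 1 to KO 3 and at 0.06, 0.21 and -0.37 in WT 1 to WT 3. Fcgr3, Fcgrt and Inpp5d followed the same order at the extremes, with KO 1 and WT 2 above KO 3 and WT 3. Fcgr1 ran the other way, at -0.09, -0.08 and 0.08 in KO 1 to KO 3 and at -0.02, -0.14 and 0.26 in WT 1 to WT 3. WT 3 held the highest value of 3 members (Fcgr1, Fcer1g and Ptpn6) and the lowest of 4 (Fcgr2b, Fcgr3, Fcgrt and Inpp5d). The standard deviation among libraries was larger in WT than in KO for 9 of 10 members, Fcgr4 being the exception.

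Markers of the cell cycle ran opposite to Fcgr2b, Fcgr3, Fcgrt and Inpp5d at the extremes. As for Fcgr1 and Tyrobp, KO 1 and WT 2 lay below KO 3 and WT 3. The mean of the 10 listed cell cycle genes stood at -0.53, 0.12 and 0.50 on the log2 scale in KO 1 to KO 3 and at -0.09, -0.41 and 0.40 in WT 1 to WT 3, and their summed level ran from 246 to 448 CPM in KO and from 255 to 436 CPM in WT. An order of either direction was common in these libraries. KO 1 and WT 2 both lay above KO 3 and WT 3 for 4 of 10 members. The same held for 30.9% of the 8443 tested genes that averaged 10 CPM or more. Both lay below KO 3 and WT 3 for 2 members (Fcgr1 and Tyrobp) and for 25.5% of those genes. The part of cell division in the values of the members was not tested.

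**Figure D4:**
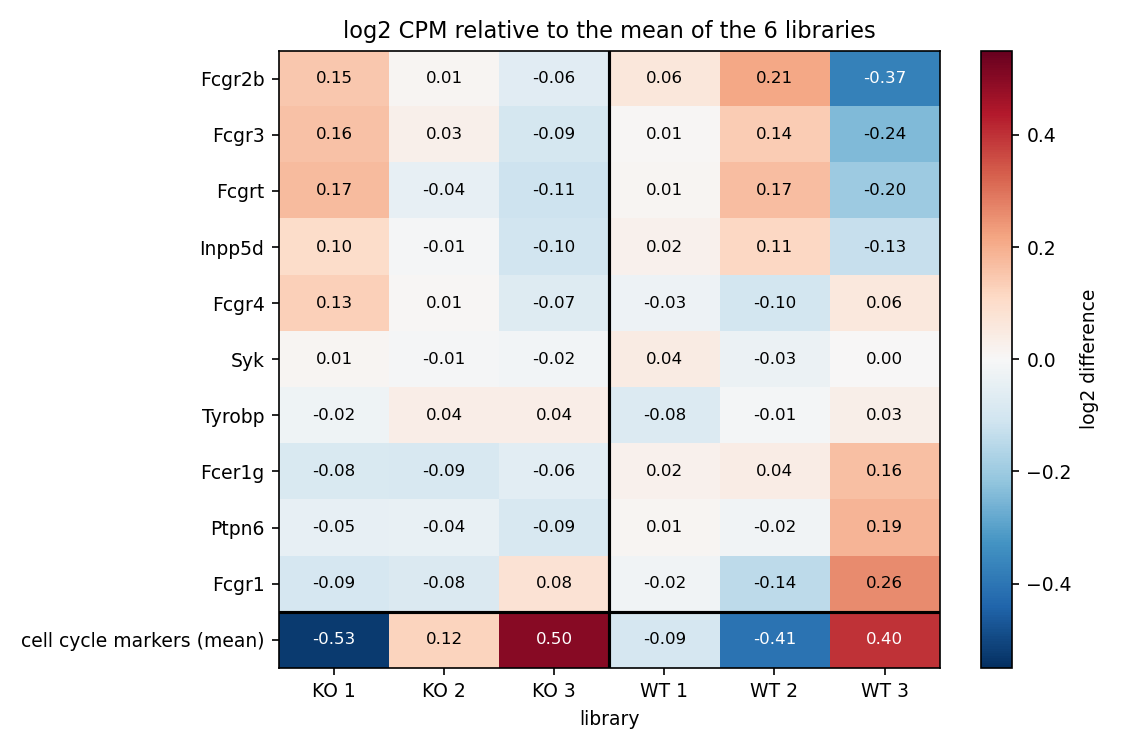
Log2 CPM of each member in each library relative to the mean of its 6 libraries (colour and printed value; columns KO 1 to KO 3, then WT 1 to WT 3), with the mean of 10 cell cycle markers in the bottom row. Fcgr2b, Fcgr3, Fcgrt and Inpp5d are high in KO 1 and WT 2 and lowest in WT 3, where the cell cycle markers are at 0.40.

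Fcgr2b, Fcgr4 and Fcgr3 lie within 105 kb of each other on chromosome 1, and Fcer1g lies 164 kb beyond Fcgr3. Of the 10 tested genes from Fcgr2b to Fcer1g, 0 were called (edgeR adjusted p = 0.999949 for each). The genotypes were without overlap for 3 of them. They included Fcer1g, lower in KO, and Sdhc, a subunit gene of respiratory complex II, which averaged 91.3 ± 5.59 CPM in KO, against 78.9 ± 2.54 CPM in WT (SD, n = 3 each, log2 fold change 0.21). Sdhc was named after its values were seen.

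RefSeq promoter windows of GRCm38.p6, from 250 bases before to 50 bases after each start, were matched by symbol for 9 of 10 members, with no entry for Tyrobp. PU.1, a factor that drives myeloid genes, binds purine-rich sequence such as GAGGAA, and this word alone was searched on both strands. It was present in the windows of 5 of the 9 members. By window it was present in 6 of 11, where the 2 overlapping windows of Fcgr3 hold the same match, and in 28.3% of 32851 windows of all genes. Shown are the windows of the neighbours Fcgr3 (chr1:171059354-171059653), Fcgr2b (chr1:170976022-170976321) and Fcer1g (chr1:171234300-171234599), all on the minus strand, because Fcgr3 and Fcgr2b followed a like order across libraries and Fcer1g had the smallest p. Capitals mark the word GAGGAA on either strand, which was found once in the window of Fcgr3 and not in the others. Other purine-rich forms, such as those with GGAA alone, were not searched.
Fcgr3: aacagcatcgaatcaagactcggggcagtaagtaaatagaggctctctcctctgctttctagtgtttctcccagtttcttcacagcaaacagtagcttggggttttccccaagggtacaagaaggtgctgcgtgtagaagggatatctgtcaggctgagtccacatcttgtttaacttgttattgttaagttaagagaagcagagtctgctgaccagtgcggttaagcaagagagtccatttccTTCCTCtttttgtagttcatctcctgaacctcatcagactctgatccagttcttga
Fcgr2b: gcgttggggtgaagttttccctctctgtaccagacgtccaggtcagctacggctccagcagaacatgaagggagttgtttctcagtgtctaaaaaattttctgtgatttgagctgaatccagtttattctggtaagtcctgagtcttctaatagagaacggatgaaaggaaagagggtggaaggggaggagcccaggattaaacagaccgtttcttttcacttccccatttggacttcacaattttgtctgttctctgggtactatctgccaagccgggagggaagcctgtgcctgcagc
Fcer1g: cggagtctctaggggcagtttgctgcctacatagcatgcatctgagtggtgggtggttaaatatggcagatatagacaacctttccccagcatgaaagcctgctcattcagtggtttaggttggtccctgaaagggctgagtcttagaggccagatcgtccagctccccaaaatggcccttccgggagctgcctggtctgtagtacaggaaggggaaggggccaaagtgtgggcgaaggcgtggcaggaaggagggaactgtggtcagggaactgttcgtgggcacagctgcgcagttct
A match to these letters is a description of the window and does not show binding.

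The genes whose levels followed Fcer1g most closely over the 6 libraries were Fbrsl1 (Pearson r = 0.996 of log2 CPM), Kitl, the ligand of the receptor Kit (0.984), and Nsun3, a methyltransferase of mitochondrial tRNA (0.983). They were the top 3 of 8442 genes that averaged 10 CPM or more, of which 45 exceeded 0.9, and all 6 points share the depth and composition of their libraries. Kitl stood at 16.2, 15.7 and 15.8 CPM in KO 1 to KO 3, against 17.6, 18.8 and 21.6 CPM in WT 1 to WT 3, and was not called (edgeR adjusted p = 0.999949).

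The wider pathway also showed 0 called genes. Of 125 genes in 6 lists, 114 were tested, and 47 were above and 67 below 0, with a median log2 fold change of -0.02. At an unadjusted p under 0.05 there was 1 gene, Cd300lb, beside 3.1% of all tested genes. The genotypes were without overlap for 3 genes, beside 8.65%. DESeq2 and limma voom called 0 of these genes as well, and each gave 1 at an unadjusted p under 0.05.

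Src-family kinases phosphorylate the ITAM, and their list had 3 tested genes above and 7 below 0 (median -0.04). Src was at 12.2 ± 1.59 CPM (KO) against 10.2 ± 0.863 CPM (WT) (log2 fold change 0.26; SD, n = 3 each). Yes1 had 0.84 (SE 0.57), with 0.608 ± 0.379 CPM (KO) against 0.340 ± 0.0338 CPM (WT). In the list for the ITAM cascade downstream of Syk, 12 of 33 genes were above and 21 below 0 (median -0.02). A place in this list does not show that a gene acts after Syk in these cells. Cblb, a ubiquitin ligase gene that restrains this signalling, had -0.16, Pik3r5, a regulatory subunit gene of PI3-kinase gamma, -0.09, and Vav3, an exchange factor gene, -0.08.

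The actin machinery that closes the phagocytic cup was even, with 12 genes above and 13 below 0 of 25 and a median of -0.0046. Vasp, a promoter of actin filament growth, was at 206 ± 5.17 CPM (KO) against 217 ± 4.47 CPM (WT) (SD, n = 3 each), and Arpc1b, a subunit gene of the Arp2/3 complex, at 647 ± 15.1 CPM (KO) against 618 ± 11.5 CPM (WT). These were the 2 of 25 genes that separated the genotypes, in opposite directions, beside 8.65% of all tested genes. Their edgeR unadjusted p was 0.194 and 0.241, and their log2 fold changes were -0.07 and 0.07. Crkl, an adaptor gene, had -0.06.

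Inhibitory receptors, phosphatases and adaptors lay below 0 for 18 of 24 genes (median -0.06), beside 50% of all tested genes. Of these 24, 0 separated the genotypes, beside 8.65% of all tested genes. Pirb, an ITIM receptor gene, was at 746 ± 23.8 CPM (KO) against 795 ± 47.8 CPM (WT) (log2 fold change -0.09), Clec12a, an ITIM lectin gene, at 280 ± 21.1 CPM (KO) against 305 ± 32.6 CPM (WT) (-0.12), and Dok1, an adaptor gene, at 65.4 ± 2.27 CPM (KO) against 61.1 ± 2.38 CPM (WT) (0.10; SD, n = 3 each). Receptors that pair with Tyrobp or Fcer1g lay above 0 for 10 and below 0 for 5 of 15 genes (median 0.07), where 50% of all tested genes lay below 0. Cd300lb, an activating receptor gene that uses DAP12, had 379, 384 and 371 CPM in KO 1 to KO 3, against 351, 348 and 344 CPM in WT 1 to WT 3. Every KO library was above every WT library, and the log2 fold change of 0.12 (SE 0.05, unadjusted p = 0.0387) did not pass over all genes (edgeR adjusted p = 0.999949). Trem2, a lipid-sensing receptor gene, had 0.07 and Sirpb1b, a member of a family of near-identical genes that may share reads, 0.29.

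Among other Fc receptors and immunoglobulin binders 7 of 14 listed genes were tested, 4 above and 3 below 0 (median 0.01). Trim21, the cytosolic antibody receptor gene, was at 28.3 ± 4.99 CPM (KO) against 30.7 ± 3.12 CPM (WT) (SD, n = 3 each, log2 fold change -0.12), and Fcrl1 had -0.07. Fcmr, the IgM receptor gene of lymphocytes, stood at 0.377 ± 0.225 CPM (KO) against 0.498 ± 0.0776 CPM (WT).

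**Figure D5:**
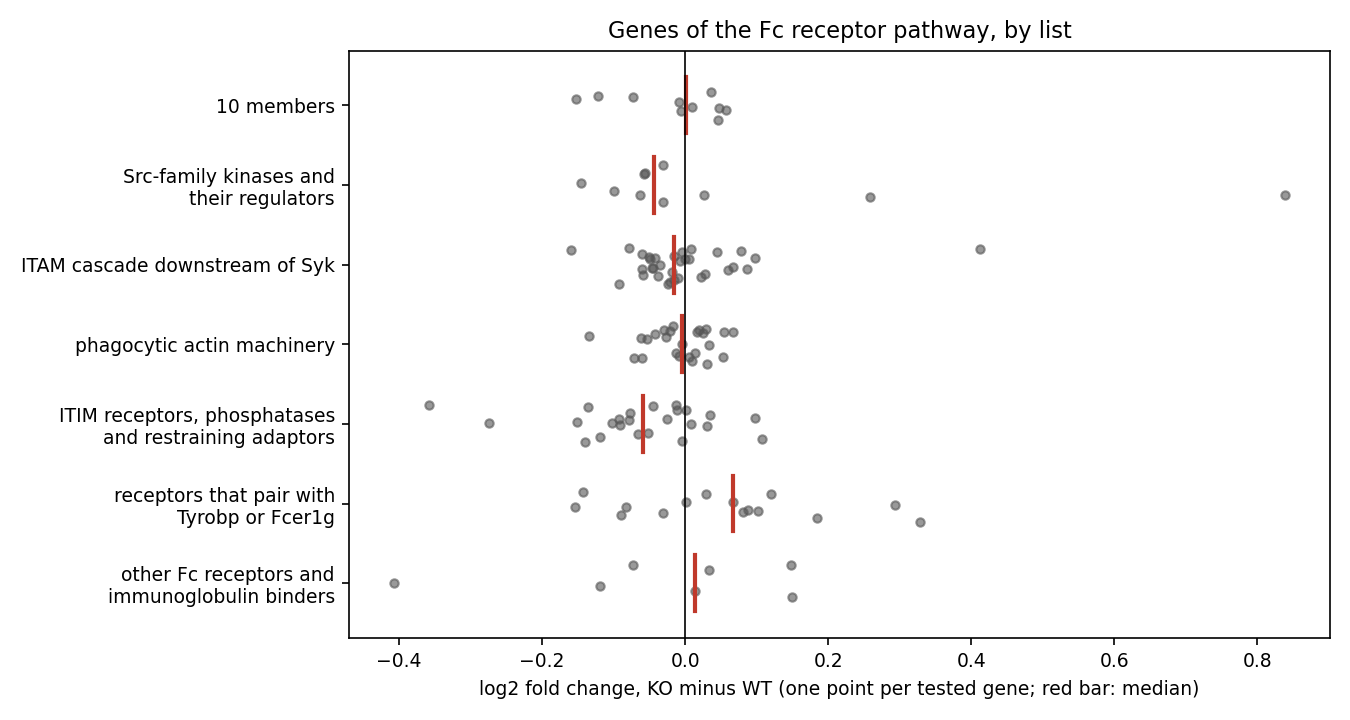
Log2 fold change of KO minus WT (horizontal axis) for every tested gene of the 10 members and of the 6 pathway lists, 1 point a gene, with the list median as a red bar. Points gather around 0 in each list, with medians between -0.06 and 0.07, and the point at 0.84 is Yes1.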

How the data were processed

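Total RNA of BMDMs was extracted with TRIzol, per the labels' protocols. The authors deposited raw read counts per gene for 3 KO and 3 WT libraries; per the submitters' processing notes, fastp, HISAT2, HTSeq and build mm10 were used. Versions, annotation, strand setting and gene filter: not given in the sources used here. Genotypes came from the sample titles. Replicate pairs differed by between 11.8 and 35.8 chi-square per degree of freedom, so each library counted once.

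Here the counts were tested with edgeR 4.0.16 in R 4.3.3 (TMM factors, filterByExpr with minimum count 10, robust quasi-likelihood fit, KO minus WT), with Benjamini-Hochberg adjustment over 12605 genes and a threshold of 0.05, after a test on simulated data. The standard error is the fold change over the square root of F; intervals are at 95%. A count of 3 is between 0.0730 and 0.0813 CPM, which covers counting error only. Alternatives used DESeq2 1.42.0, limma 3.58.1, other scalings and filters, a replicate block and left-out libraries. Members and lists were chosen with earlier results of these data known. Named genes were the members, Trmt61a, the 3 genes with the smallest p in each list and the 3 most like Fcer1g; others were named after their values were seen, and some results are not reported here. Positions are RefSeq's for GRCm38.p6, matched by Entrez Gene ID.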

Additional observations from a re-analysis of the deposited data

How the results depend on the processing

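Over 16 alternatives, 0 members and 0 pathway genes were called. Trmt61a kept its call in all 16, with log2 fold changes from -3.11 to -2.84 and adjusted p from 1.43e-16 to 0.0440. Over all genes, 4 were called in edgeR, 17 in DESeq2 and 8 with the replicate block, and between 3 and 5 when 1 library was left out. Fcer1g stayed between -0.18 and -0.11, with an unadjusted p under 0.05 in 14 of 16 and adjusted p from 0.910 to 0.999965; the exceptions left out KO 2 or WT 3. Ptpn6 (from -0.17 to -0.05) and Tyrobp (from 0.0077 to 0.06) also kept their sign. Over all members and alternatives 13 values changed sign and 147 did not, none of them called: with 1 library left out, Fcgr1 ran from -0.16 to 0.051, Fcgr2b from -0.11 to 0.17, Fcgr3 from -0.040 to 0.14, Fcgrt from -0.081 to 0.099, Inpp5d from -0.068 to 0.047, Syk from -0.030 to 0.013 and Fcgr4 from -0.0091 to 0.092. Without KO 1 and WT 2 together, Fcgr4 was at -0.048. Same-numbered KO and WT libraries deviated together with correlations of 0.03, -0.24 and 0.47 across genes. Differently numbered libraries ran from -0.53 (KO 1 with WT 3) to 0.53 (KO 1 with WT 2). The numbers thus showed no steady pairing, and a batch shared across genotypes was not tested. The replicate block changed no call among the members (Fcer1g -0.15). The intervals given are per gene and unadjusted, while a call needs a p adjusted over 12605 genes, so a difference can go uncalled although its own interval lies on one side of 0, as for Fcer1g.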
